A study of Drosophila melanogaster with 3 samples.

Results

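This account concerns the intronic binding sites of the CG12071 protein that lie more than 500 and up to 2000 bp from a transcription start site (TSS). A peak was a member when its summit lay inside a protein-coding gene, in no exon, more than 500 bp from the TSS of any noncoding RNA gene, and more than 500 and up to 2000 bp from the nearest TSS of any protein-coding transcript. Of the 4261 peaks that passed the authors' threshold on the irreproducible discovery rate (IDR), 682 met this rule (16.0%, Wilson 95% interval 14.9 to 17.1%). Membership therefore rests on position alone and not on the strength of a peak. Binding was measured by chromatin immunoprecipitation and sequencing (ChIP-seq) in 3 biological replicates of 1 group, so no conditions can be compared. Each replicate was a pool of whole male and female Drosophila melanogaster embryos, 12 to 24 hours old, from 1 transgenic line that stably expresses CG12071 with green fluorescent protein (GFP) at its C-terminal end, and the labels give neither the promoter that drives the fusion nor the state of the untagged gene. One line of the labels calls every replicate an input control, but the assay name, the antibody and the file records are those of an immunoprecipitation, and the replicates were used as such. Binding in a whole embryo is a mixture over its tissues, and a weak site in all cells cannot be told apart from a strong site in few.

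Introns of flies hold much of the regulatory DNA of development. Enhancers, short stretches bound by transcription factors that raise the activity of a promoter, are often found in the first intron, which in many fly genes is the longest. A site in the range studied here is too far from the TSS to belong to the core promoter, where the RNA polymerase machinery assembles, yet is close to it compared with many known enhancers.

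The sequences at 8 of the strongest sites that were supported in every replicate are shown for the main sequence property of the group, a summit rich in A and T. Of these, 7 were chosen because they hold one of the 3 motifs described below, and 1 shows a window without. The windows of NFAT, of chif and Hyls1 and of for, also among the strongest, hold none and are not shown. The windows shown therefore say nothing of how frequent the motifs were, and 473 of the 682 members held none. Each is a stretch of the plus strand of the RefSeq genome (release 6, the coordinates of dm6), 50 bases to each side of the summit, written 5′ to 3′. Capitals mark matches on either strand to TATAAA, the core of the TATA box, to GTAAACA, a site of forkhead factors, and to AGATAA, a site of GATA factors.
CG11050 chr2L:6612676-6612776: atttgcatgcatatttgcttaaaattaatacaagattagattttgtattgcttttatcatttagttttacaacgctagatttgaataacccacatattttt
ush chr2L:481051-481151: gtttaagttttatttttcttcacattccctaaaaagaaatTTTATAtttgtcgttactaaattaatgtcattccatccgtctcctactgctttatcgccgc
Lk6 chr3R:11761008-11761108: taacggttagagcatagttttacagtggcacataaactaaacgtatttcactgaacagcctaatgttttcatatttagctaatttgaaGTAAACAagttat
CG9663 chr2L:3302137-3302237: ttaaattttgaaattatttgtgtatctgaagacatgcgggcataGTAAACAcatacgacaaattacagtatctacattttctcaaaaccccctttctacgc
CG32772 chrX:4910326-4910426: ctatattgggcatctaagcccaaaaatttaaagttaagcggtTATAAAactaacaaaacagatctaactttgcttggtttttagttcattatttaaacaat
Reph chr2L:3804718-3804818: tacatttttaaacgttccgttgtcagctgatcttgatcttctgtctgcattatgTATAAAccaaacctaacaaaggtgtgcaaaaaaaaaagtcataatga
CG9837 chr3R:8811633-8811733: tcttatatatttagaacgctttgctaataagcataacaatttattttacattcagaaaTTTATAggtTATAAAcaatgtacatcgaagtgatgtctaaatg
Trl chr3L:14759462-14759562: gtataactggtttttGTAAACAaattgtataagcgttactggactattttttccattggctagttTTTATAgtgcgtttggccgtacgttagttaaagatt

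The window of CG11050 held none of the 3 motifs and had a GC content of 23.8%. The TATA box letters were present in the windows of ush, CG32772, Reph, CG9837 and Trl, and the forkhead letters in those of Lk6, CG9663 and Trl. None of the 8 windows held the GATA letters. A match is a stretch of letters and does not show which protein bound there.

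Read totals were not used here, and the precision of each replicate can be seen only from its list. At a q-value of 0.05 or less, replicate 1 had 13828 entries, replicate 2 had 12616 and replicate 3 had 4015, so replicate 3 was the weakest. A peak was called supported by a replicate when one of the 4261 strongest entries of that replicate had its summit within 100 bp. The labels number the replicates as biological ones without saying how the embryos were collected, so the spread between them may be partly technical. With 3 replicates, the exact paired permutation test used below cannot give a two-sided p under 0.25. Intervals on shares cover counting error only.

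The intronic sites close to a TSS were denser than peaks elsewhere in the genome. Bases that meet the rule made up 10.1 Mb, or 7.53% of the 133.6 Mb searched, and held 67.7 peaks per Mb against 31.9 peaks per Mb over all bases, a ratio of 2.12. The ratio was 3.55 for promoters (summits within 500 bp of a TSS), 1.06 for introns more than 2 and up to 10 kb from a TSS, and 0.413 for introns beyond 10 kb. Among the 4261 strongest entries of each replicate, the ratio for the members' class was 2.01, 2.12 and 2.12 in replicates 1, 2 and 3 (mean 2.08 ± 0.0603, SD, n = 3). The share of entries in this class was 15.2%, 15.9% and 16.0% (mean 15.7% ± 0.454, SD, n = 3). The class was thus of nearly equal size in the 3 replicates, while the promoter share was 47.3%, 42.1% and 31.2%.

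Density fell with distance inside the range. The 167 members up to 750 bp from the TSS came to 84.2 peaks per Mb of intronic bases, the next 133, up to 1000 bp, to 70.9, the 119 up to 1250 bp to 69.0, the 109 up to 1500 bp to 68.0, the 81 up to 1750 bp to 54.2 and the 73 up to 2000 bp to 52.6. In the replicates, the nearest bin had 88.7, 88.2 and 86.2 peaks per Mb and the farthest 53.3, 46.8 and 52.6, so the bins at the ends of the range did not overlap. Intronic bases outside the range continued the slope, with 100.1 peaks per Mb between 250 and 500 bp and 43.0 between 2000 and 2250 bp. The bounds therefore cut a gradient and not a separate cluster of sites. Among the members just inside the lower bound, 2 were in jar (503 bp, pooled rank 512) and CG31523 (503 bp, rank 449), and the peaks just outside it were at 500 bp (CG9981, rank 945) and 496 bp (CG13252, rank 1161). At the upper bound, members lay at 1992 bp (Cph, rank 3941) and 1997 bp (CG33298, rank 3846), and the nearest peaks beyond it at 2004 bp (crol, rank 2822) and 2005 bp (Irk1, rank 841). Rank counts from 1 for the strongest peak by the authors' signal value.

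**Figure D1:**
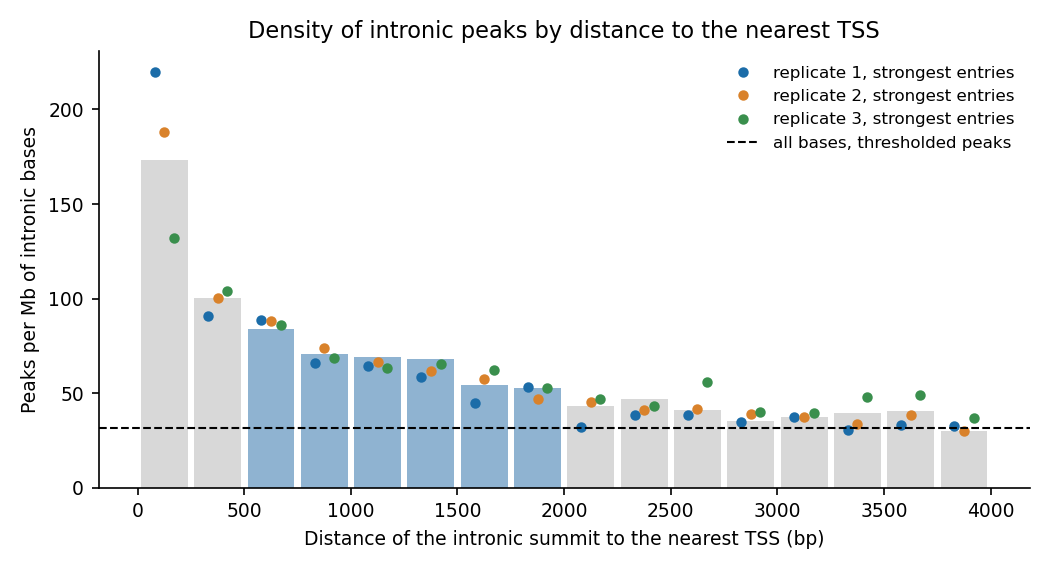
Peaks per Mb of intronic bases (y axis) in 250 bp bins of distance to the nearest TSS (x axis, bp). Bars are thresholded peaks, blue for the members' range and grey outside it, dots are the strongest entries of each replicate and the dashed line is the density over all bases, 31.9. The blue bars fall from 84.2 to 52.6 and all stand above the line.

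Members lay mostly in the first intron of the gene that held them. Of the 682, 578 were in a first intron (84.8%, Wilson 95% interval 81.9 to 87.3%), against 66.4% of the bases that meet the rule. The share was 86.4%, 85.0% and 83.7% in the lists of replicates 1, 2 and 3 (mean 85.0% ± 1.35, SD, n = 3), above the share of bases in each. The nearest TSS belonged to the gene that held the peak, here called the host, for 620 members (90.9%, Wilson 95% interval 88.5 to 92.8%) against 80.7% of the bases, and for 92.4%, 90.6% and 90.3% of entries in the replicates (mean 91.1% ± 1.15, SD, n = 3). Both shares stood above those of the bases in every replicate, and no test of this was made. Members favoured neither side of the TSS: 455 lay downstream of it (66.7%) against 67.2% of the bases, and 67.3%, 66.1% and 61.5% in the replicates. Of the 227 upstream members, 181 lay upstream of a TSS of their own host, within an intron of a longer transcript. The other 46 upstream members, and 16 of the downstream ones, were nearest to a TSS of a gene that did not hold them.

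**Figure D2:**
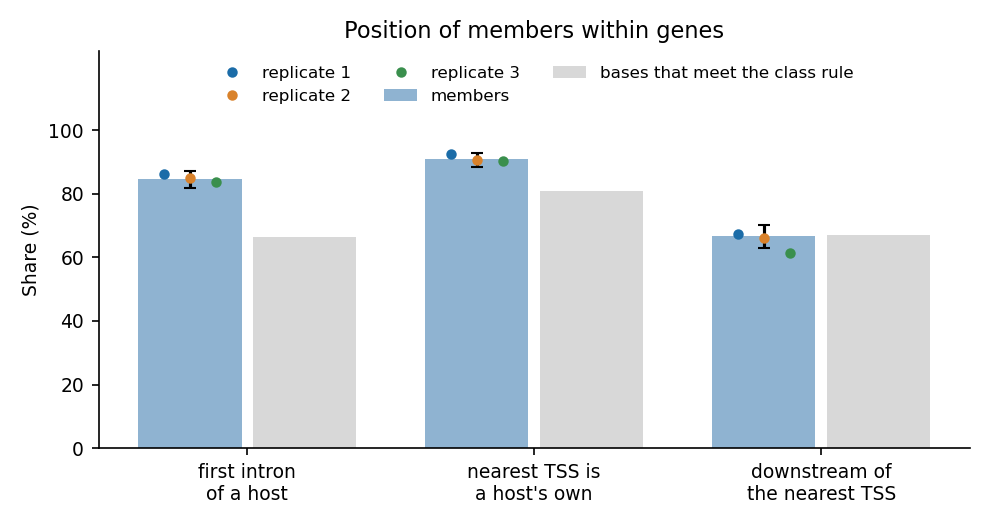
Share of the 682 members (blue bars, error bars are Wilson 95% intervals) and of all bases that meet the rule (grey bars) by position, with the share among the strongest entries of each replicate as dots. First introns (84.8% against 66.4%) and a host's own TSS (90.9% against 80.7%) stand above the bases, and the downstream side does not (66.7% against 67.2%).

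The introns that held members had a median length of 4560 bp, with quartiles at 2049 and 10181 bp, beside a median of 4038 bp over the bases that meet the rule. The shortest was 68 bp and the longest 108407 bp. Summits lay at a median of 1066.5 bp from the TSS. The arms held members near their share of the bases: 110 on 2L, 137 on 2R, 136 on 3L, 161 on 3R and 138 on X. The small chromosome 4 held none, with 1.13% of the bases, and 0 of 682 allows a share of up to 0.440% (3 counts of the total; the upper Wilson bound is 0.560%). In the replicates its share was 0.155%, 0% and 0%. An interval of 370 bp, the width most entries share, was given for 339 members, and 1 summit lay in a transposable element.

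Support by the replicates was more even for these introns than for promoters. In all 3 replicates, 373 members were supported (54.7%, Wilson 95% interval 50.9 to 58.4%), against 48.5% of all thresholded peaks, 44.5% of promoter peaks, 54.4% of intronic peaks at 2 to 10 kb and 50% of those beyond 10 kb. Another 200 members were supported by 2 replicates, 95 by 1 and 14 by none. Replicates 1, 2 and 3 supported 77.3%, 82.7% and 76.7% of the members (mean 78.9% ± 3.31, SD, n = 3), while promoter peaks had 79.9%, 80.7% and 59.3%. Intronic peaks at 2 to 10 kb had 76.4%, 80.9% and 79.3%, and those beyond 10 kb 70.1%, 78.7% and 79.1%. The promoter peaks were thus short of support in the weakest replicate, and neither the members nor the farther introns were. The thresholded list was itself selected for reproducibility on these replicates, so these shares are a description without a test.

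The members were spread over the whole range of strength. Their median pooled rank was 1979.5, beside 2014 for promoter peaks, 2091 at 2 to 10 kb and 2426.5 beyond 10 kb. They made up 17.0%, 17.6%, 16.4%, 14.7% and 14.3% of the quintiles of thresholded peaks from strongest to weakest, and 10 of the 50 strongest. In the replicates the median rank of the members was 2379.5, 2053 and 1946.5, where a peak without an entry within 100 bp was placed last. Against introns at 2 to 10 kb the members ranked higher by 138.5, 158 and 150.5 places, in 3 of 3 replicates (exact paired permutation test, two-sided p = 0.25, the smallest possible, 0.536 after Benjamini-Hochberg adjustment over 15 comparisons). Against introns beyond 10 kb the gap was 808, 477.5 and 333 places (the same p values). Against promoters the sign differed between replicates: members ranked lower by 466.5 places in replicate 1 and higher by 126 and 927.5 in replicates 2 and 3 (exact permutation p = 0.75, adjusted 0.75). None of these differences could pass a threshold of 0.05 with this number of replicates.

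**Figure D3:**
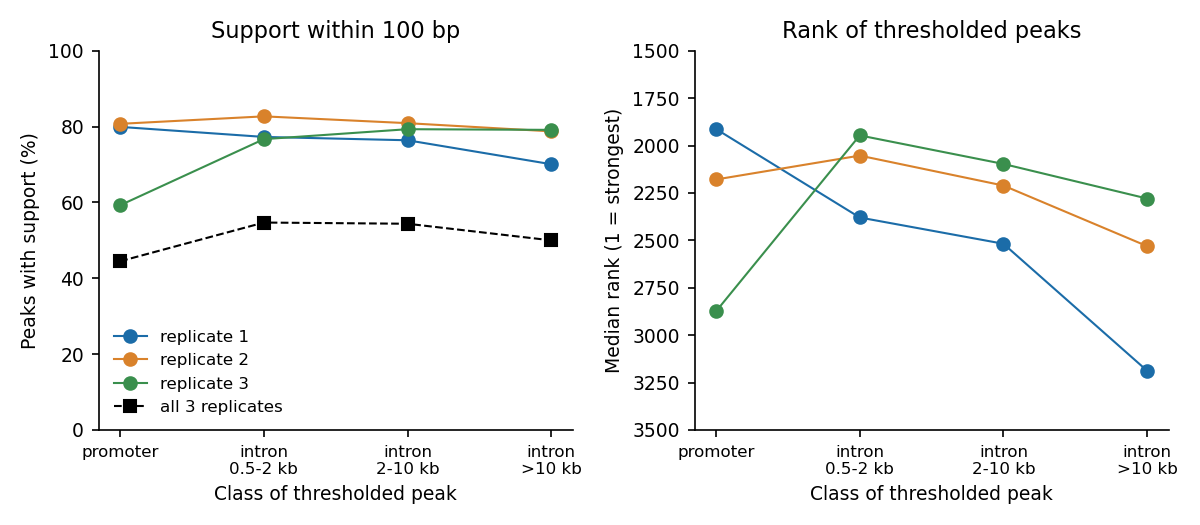
Left, share of thresholded peaks of each class with support in a replicate (coloured dots) and in all 3 (black squares). Right, median rank in each replicate, with stronger peaks at the top. Members have 77.3%, 82.7% and 76.7% support, and replicate 3 falls to 59.3% at promoters, where the order of the replicates by rank is also the reverse of that in the introns.

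The strongest of these sites ranked high in every replicate. They were chosen by pooled signal among members supported in all 3 replicates, so that choice in part fixes their high ranks. The site in CG11050 (chr2L:6612421-6612961) ranked 3, 3 and 4 in replicates 1, 2 and 3, in an intron of only 140 bp that was not the gene's first. The site in ush (chr2L:480909-481282), which encodes a cofactor of GATA factors, ranked 4, 6 and 5. It lay in the first intron, 13185 bp long, but its nearest TSS was that of cbt, a zinc-finger gene, which also had a promoter peak. The site in Lk6 (chr3R:11760875-11761245), a kinase of the translation initiation factor eIF4E, ranked 14, 17 and 11. These 3 sites thus kept nearly the same place in every replicate.

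The next sites were more varied in setting. The member in CG9663 (chr2L:3302010-3302348) ranked 17, 19 and 12, and its TSS carried a promoter peak. A weaker member of the same intron had its summit 200 bp away and ranked 3470, 10214 and 1496. The member in CG32772 (chrX:4910167-4910540) ranked 32, 22 and 18, 9299 bp from the next thresholded summit. The member in Reph (chr2L:3804608-3804940), 914 bp upstream of one TSS of the gene and inside its first intron, ranked 25, 32 and 19. All 3 were thus among the 32 strongest entries of every replicate.

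NFAT, the fly gene of the NFAT family of transcription factors, held a member (chrX:13640344-13640685) that ranked 30, 43 and 27. A site in an intron shared by chif and Hyls1 (chr2L:16351049-16351427), the first a regulator of DNA replication and of chorion gene amplification and the second a centriole protein gene, ranked 29, 58 and 54. CG9837 held 2 of the 15 strongest supported members in 1 intron, 1069 bp apart. The stronger (chr3R:8811512-8811851) ranked 45, 52 and 38 and the other (chr3R:8810470-8810818) 26, 84 and 189. Their order by rank was therefore reversed in replicate 1.

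Trl, which encodes the GAGA factor, held a member (chr3L:14759326-14759704) that ranked 80, 30 and 37 in the second intron. The site in for (chr2L:3655680-3655969), the cGMP-dependent protein kinase of the foraging locus, ranked 47, 63 and 64, and was alone in its neighbourhood, 23345 bp from the next summit. CG3726 (chrX:5918779-5919066) ranked 73, 94 and 45. These were all first-intron sites apart from that of Trl. The phospholipase C gene of vision, norpA, held a site (chrX:4324840-4325137) that ranked 81, 100 and 41. The site shared by HmgZ and HmgD (chr2R:21703107-21703643), 2 overlapping genes of HMG-box chromatin proteins, ranked 169, 68 and 32 and had the largest SD of rank (71.0) among the 14 strongest. Of the 15 strongest supported members, 13 were in a first intron and 14 had a TSS of their host as the nearest.

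The 682 members lay in 604 host genes, which were 6.69% of the 9023 protein-coding genes with any base that meets the rule. One member was held by 508 of these genes, 2 by 70 genes, and 3 or more by 26 genes. Hosts were more frequent among genes with more such bases, here called class bases. From the quintile of genes with the fewest to that with the most, hosts made up 0%, 0.111%, 1.55%, 8.26% and 23.5%. Another thresholded summit lay within 2 kb of 322 members (47.2%), with a median gap of 2236.5 bp. The share was 35.3% over all thresholded peaks, 31.6% of promoter peaks, 35.8% of intronic peaks at 2 to 10 kb and 28.3% beyond 10 kb. The rule in part fixes this difference. It places every member within 2 kb of a TSS, so a promoter peak at that TSS mostly falls within 2 kb of the member. No test of this difference was made.

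CG1677 held the most members, 7, in a locus on X where TSSs of several other genes lie in or near its span. Its members (pooled ranks 335 to 2590) were nearest to TSSs of unc-119, brk, Dok, CG42780 and CBP, and none to a TSS of CG1677 itself, and 6 of the 7 were supported in all replicates. The member nearest to brk, the gene of the Dpp pathway repressor Brinker, was the one without any support (rank 4499 in replicate 1 and no entry within 100 bp in the others). CG1677 had 22970 class bases, so its count has to be read against a large target.

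NFAT held 5 members within 6034 class bases. Ordered along the gene, their pooled ranks were 1940, 30, 612, 863 and 2210, all nearest to a TSS of NFAT, and 3 of the 5 were supported in every replicate. The 3 in the middle lay 1659, 912 and 705 bp upstream of their nearest TSS. The intervals of those at 912 and 705 bp overlap, with summits 207 bp apart, so these may not be separate sites. Tlk, the Tousled-like kinase gene, also held 5, with pooled ranks 526 to 3777 and 3 supported. CG32264 and bun, a gene of the TSC22 family, held 5 each with 2 supported. Of the members in bun, 3 were nearest to a TSS of CG43051.

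CG10543, HmgZ, SNF4Agamma and Svil held 4 members each. SNF4Agamma encodes the gamma subunit of AMP-activated protein kinase, and Svil encodes a supervillin-like protein. CG10543 had the smallest target of these 4, 2918 class bases, with members at pooled ranks 656, 1402, 1747 and 2569, of which 2 were supported. Hosts of 3 members were the acyl-CoA synthetase gene Acsl, the Rap1 exchange factor gene C3G, CG13917, CG14434, CG46310, the forkhead gene CHES-1-like, the inhibitor of apoptosis gene Diap1, the LAMMER kinase gene Doa, HmgD, the potassium channel gene Irk1, Leash, the nesprin gene Msp300, Trl, the stress response factor gene cnc, the Dpp pathway factor gene shn, tou and tun. HmgD shared its 3 with HmgZ, and CG46310 and Irk1 shared theirs. All 3 were supported in CHES-1-like (pooled ranks 283, 807 and 1290) and tun (1891, 2769 and 2932), and none in Msp300 (2244, 3257 and 3266).

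A promoter peak at the nearest TSS accompanied 183 members (26.8%, Wilson 95% interval 23.6 to 30.3%). The share was 32.1% for intronic peaks at 2 to 10 kb, 20.5% beyond 10 kb and 12.7% over all 19252 TSSs. In the lists of the replicates it was 33.9%, 28.1% and 20.1% for members (mean 27.4% ± 6.91, SD, n = 3) and 37.9%, 31.6% and 20.02% for the introns at 2 to 10 kb, so these classes came within 4 percentage points of each other in each replicate. Members paired with a promoter peak were in the minority in every list. The share depended on which peaks were kept: among peaks supported in all 3 replicates it was 10.2%, beside 6.03% of all TSSs and 11.5% at 2 to 10 kb. Among the strongest 2130 peaks it was 14.2%, beside 7.03% of all TSSs, and among peaks supported by the other replicates it was 12.8% without replicate 1 and 10.7% without replicate 2.

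Seen from the gene, 268 of the 604 hosts had a promoter peak at one of their TSSs (44.4%, Wilson 95% interval 40.5 to 48.4%), against 14.9% of the other genes with class bases. Hosts had more TSSs, with a median of 2 against 1, and more class bases, with a median of 3000 against 330. In the top quintile by class bases the shares were 46.8% of hosts and 24.6% of other genes. Among genes with a single distinct TSS the shares were 26.8% of 183 hosts and 9.98% of 5780 other genes, and among genes with more TSSs 52.0% and 25.6%. The hosts with a single TSS still had more class bases, with a median of 1500 against 237. The difference in share was present in each of these strata, in percentage points smaller than over all genes, and it was not tested.

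Genes of 28 lists of pathways, protein families and tissues were read against the 6.69% of all genes with class bases. Of the 786 listed genes with such bases, 89 were hosts (11.3%), and these genes also had more of them, with a median of 934 against 383. The share of listed hosts was 7.25% without replicate 1 and 6.62% without replicate 2, when only peaks supported by the other replicates were kept, beside 4.53% and 4.29% of all genes. A gene can stand in several lists. A host is the gene that held the site, and the nearest TSS can be that of another gene, as for ush above. The leading sites in ImpL2, drk, NetB and fra were nearest to TSSs of CG46460, mars, hog and CG33752. Those in br, kirre, Fas3 and mdy were nearest to TSSs of Mur2B, CG32795, CG34171 and CG13280. The counts below are descriptions and small, and no list is called particular from them. Cell adhesion and cytoskeleton genes had 14 hosts of 41 (34.1%, and 29.3%, 26.8% and 29.3% in the replicates), and the smaller bZIP list had 4 of 12 (33.3%, and 41.7%, 33.3% and 33.3%), so that the order of these lists differed between the thresholded peaks and the replicates. Their medians of class bases were 1539 and 2095. Among all genes of the top quintile, which had 1500 class bases or more, hosts made up 23.5%, so 6.69% is a low reference for these lists. The strongest site of the adhesion and cytoskeleton genes was in tsr, the cofilin gene (chr2R:24045213-24045484), which ranked 152, 136 and 174. Moe, the fly moesin gene, ranked 240, 372 and 232 (chrX:8896163-8896405), and rhea, the talin gene, 774, 961 and 580 (chr3L:8547157-8547356). All 3 were supported in each replicate. The other hosts were Dys, LanA, alpha-Spec, Dg, shot, dia, capu, Fas3, scb, chic and beta-Spec.

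Among signalling pathways, the EGF receptor and Ras pathway had 7 hosts of 24 (29.2%), with a median of 1500 class bases. The adaptor gene drk ranked 467 and 427 in replicates 1 and 2 and had no entry within 100 bp in replicate 3. The gene edl, whose product binds Ets factors, ranked 441, 356 and 464, and the inhibitor gene sty (sprouty) 657, 991 and 958. Krn and spi, which encode ligands of the receptor, aos, an inhibitor, and Mkp3, a phosphatase of the pathway, were also hosts. The Dpp pathway had 4 hosts of 19, with the transducer gene Mad at 256, 696 and 201, shn at 373, 561 and 407, the receptor gene wit at 500, 570 and 394, and dally. The insulin and TOR pathway had 4 of 24: Lk6, the receptor gene InR at 221, 311 and 253, ImpL2, an insulin-binding protein gene, at 198, 407 and 266, and S6k.

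Each of the remaining pathways had at most 2 hosts. The Wnt pathway had 2 of 19 (10.5%), the co-receptor gene arr (rank 2493 in replicate 2 and no entry in the others) and the receptor gene fz3 (3267, 7147 and 2677). JAK-STAT had 2 of 14 (14.3%), Stat92E (2875, 1487 and 1033) and its feedback inhibitor Socs36E (6813, 9940 and 1922). Notch had 2 of 14 (14.3%), the ligase gene neur (583, 763 and 586) and the coactivator gene mam (681 and 5007, with no entry in replicate 3). Hippo had 2 of 15 (13.3%), Diap1 (473, 348 and 334) and the polarity gene crb (2231, 1228 and 894). Hedgehog had 0 of 8, with 12.5% in replicate 3 and 0% in the others. Only Diap1, crb, neur and Stat92E of these 8 sites were supported in all 3 replicates.

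Transcription factor families differed in their counts. The 4 hosts of the bZIP family were CrebB at 1068, 1589 and 1070, cnc at 920, 1662 and 1224, the Fos gene kay at 1334, 1405 and 1182, and vri. Forkhead factors had 2 of 9, CHES-1-like at 364, 228 and 306 and jumu at 515, 982 and 6067. The list of zinc finger developmental regulators had 8 of 46, among them ush, lola at 2148, 1193 and 777 and fru at 3053, 1374 and 1646, with ken, bowl, sqz and luna. The list also counts Mnt, which is not a zinc finger gene. Ecdysone genes and nuclear receptors had 6 of 27, with a median of 2672 class bases. They were ImpL2, br at 2328, 1566 and 627, EcR at 2126, 2236 and 4029, Hnf4, Eip78C and Hr4. Homeodomain factors had 1 of 56, zfh1 at 695, 637 and 612, although their median of 1353 class bases was above that of all genes. Chromatin and insulator proteins had 4 of 45, Trl, the Polycomb gene ph-p at 1087, 686 and 555, mod(mdg4) at 1009, 1629 and 10626, and osa.

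Genes listed for tissues were hosts in most of the lists. Fat body and metabolism had 7 of 28: the lipase gene bmm at 288, 185 and 158, the lipid droplet gene Lsd-2 at 998 in replicate 1 with no entry in the others, Mtp at 1289 and 1405 in replicates 1 and 3, Lpin, mdy, Hnf4 and PyK. The share of that list was 28.6%, 17.9% and 10.7% in replicates 1, 2 and 3, so it varied widely between them. Hemocyte genes had 4 of 18 (ush, zfh1, LanA at 746, 717 and 1756, and LanB1). Neuronal genes had 6 of 46, among them NetB at 231, 364 and 376, elav at 393, 914 and 480 and fra at 739, 978 and 1521, with Syn, insc and sli. Muscle genes had 5 of 34, the myoblast fusion genes mbc (262, 985 and 766), kirre (1183, 1051 and 675) and rols, with Msp300 (9326, 3363 and 841) and Zasp52. The glial list had 3 of 18: Gs2 at 489, 733 and 519, loco at 725, 1002 and 6399 and mdy at 3701 and 1393. Since mdy also stands in the fat body and metabolism list, its place here does not make it a gene typical of glia.

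Gut genes had 3 of 16, cv-c (2159, 1197 and 15105), Fas3 (2571, 9207 and 2093) and Hnf4 (2758, 3158 and 16025), none supported in all 3 replicates. Epidermal and septate junction genes had 4 of 32: crb, dlg1 (6017, 2512 and 1062), sn (6674, 3175 and 1622) and cora. Translation factors had 3 of 20, Paip2 (3240 and 2782, with no entry in replicate 3), pAbp (3333 and 3634 likewise) and larp (5673, 3741 and 2138). Heat shock genes and chaperones had 1 of 11, the Hsp90 gene Hsp83 at 510, 316 and 340. Lists with no host were cytoplasmic ribosomal proteins (0 of 49), tracheal genes (0 of 14), cuticle proteins (0 of 34) and chemoreceptors (0 of 133). Their medians of class bases were 166, 1661, 378 and 161, so the ribosomal protein and chemoreceptor genes had little intron in the range, and the tracheal genes had much. Single replicates put 7.14% and 14.3% of tracheal genes among hosts in replicates 1 and 2, and 2.94% of cuticle protein genes in replicate 1.

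**Figure D4:**
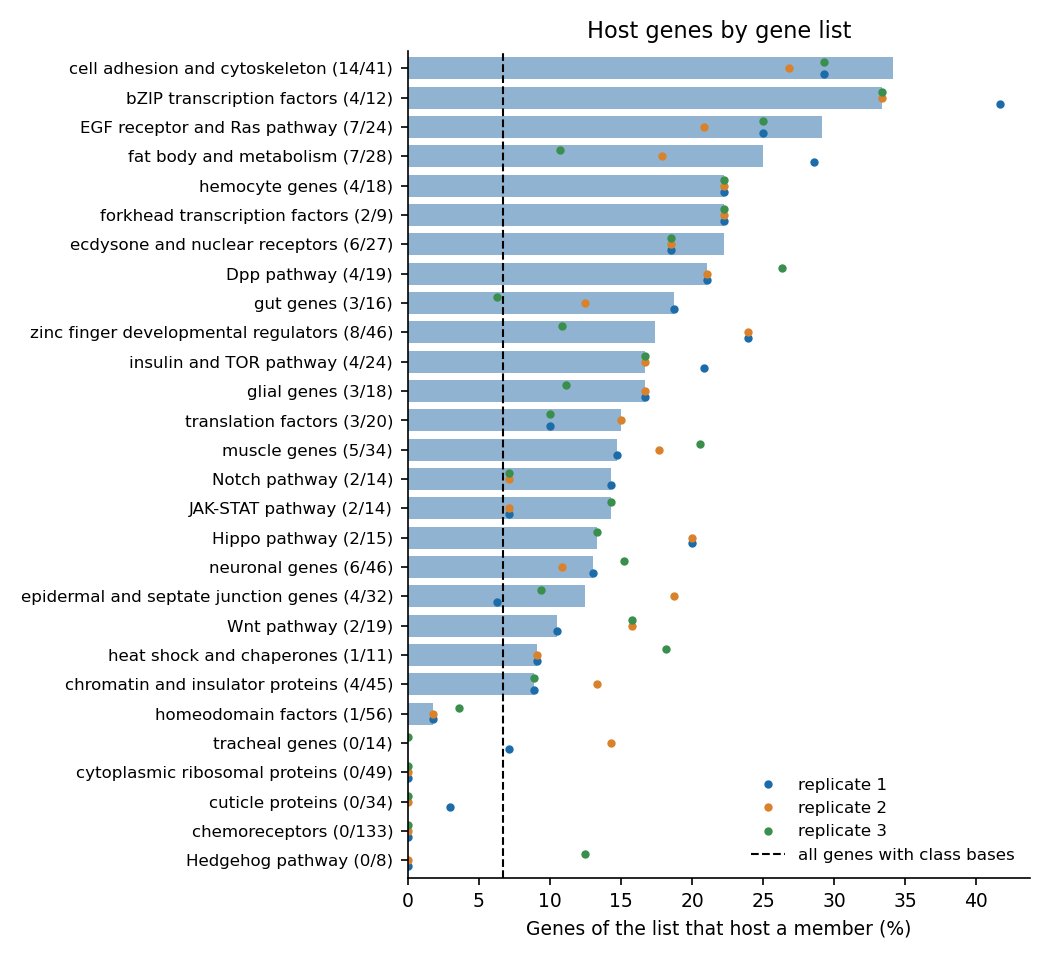
Share of the genes of each list that host a member (bars, x axis in %), with hosts over genes with class bases in parentheses and the value in the list of each replicate as dots. The dashed line is the 6.69% of all genes with class bases. Their median of 383 class bases is below that of the cell adhesion and cytoskeleton genes (1539) and of the bZIP factors (2095). Among thresholded peaks, cell adhesion and cytoskeleton genes (34.1%) and bZIP factors (33.3%) have the longest bars, the replicates put the bZIP factors higher, and 5 lists stand at 0.

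The summits of the members were poor in G and C. The mean GC content within 50 bp of the summit was 37.5%, against 42.0% in an equally wide flank 300 bp away. Promoter peaks had 41.5% and 42.0%, and intronic peaks at 2 to 10 kb 37.3% and 41.4%. GC content was lower at the summit than in the flank for 429 members (62.9%) and for 56.1% of all thresholded peaks. That share was 50.3% for promoter peaks, 61.3% at 2 to 10 kb and 64.2% beyond 10 kb. In the replicates, GC content at the summit of members was 39.4%, 37.4% and 37.5% (mean 38.1% ± 1.12, SD, n = 3), against 43.7%, 41.0% and 39.2% at promoters. The members were lower than promoters by 4.34, 3.60 and 1.67 percentage points, in 3 of 3 replicates (exact paired permutation test, two-sided p = 0.25, adjusted 0.536). Against introns at 2 to 10 kb they differed by 0.503, 0.0722 and -0.169 percentage points (exact permutation p = 0.75, adjusted 0.75). The dip was narrow: in windows of 51 bases the mean was 36.6% at the summit and 42.4% and 42.2% at 100 bp to the left and right. The stronger 341 members had 35.95% at the summit and the weaker 341 had 39.1%.

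**Figure D5:**
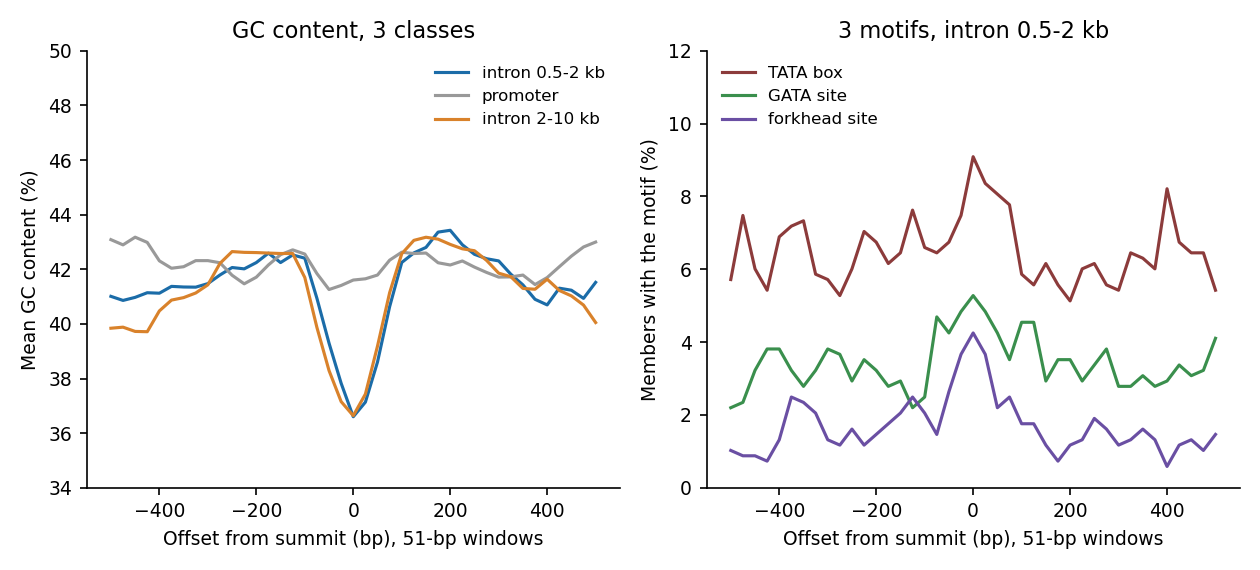
Left, mean GC content (%) in 51-base windows against offset from the summit (bp) for members (blue), promoter peaks (grey) and intronic peaks at 2 to 10 kb (orange). Right, share of members (%) with each of 3 motifs in the same windows. GC content of members dips to 36.6% at the summit, and the forkhead letters reach 4.25% there.

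Of 34 motifs searched on both strands, up to 50 bp from the summit, 3 had the largest excess over the flank in the members, and they are described for that reason without a test against the flank. TATAAA was present in 109 members (16.0%) against 11.4% of flanks, and in 14.2% of all thresholded peaks. GTAAACA was present in 51 members (7.48%) against 2.93% of flanks, and in 6.64% of all thresholded peaks. AGATAA was present in 69 members (10.1%) against 7.92% of flanks, and in 7.93% of all thresholded peaks. The shares of the first pair were thus near those of all peaks. Exactly 1 of the 3 was found in 189 members, 2 were found in 20 members, and 473 held none.

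The forkhead letters varied between classes. Among thresholded peaks they were found in 5.31% of promoter peaks, 9.42% of intronic peaks at 2 to 10 kb and 8.66% of those beyond 10 kb. In that list the members stood between promoters and the farther introns. In the replicates the share in members was 7.12%, 7.36% and 6.62%, against 4.62%, 5.57% and 4.81% at promoters, higher by 2.50, 1.79 and 1.81 percentage points (mean 2.03 ± 0.407, SD, n = 3, exact paired permutation p = 0.25, adjusted 0.536). Against introns at 2 to 10 kb members were lower by 2.31, 2.89 and 0.291 percentage points (exact permutation p = 0.25, adjusted 0.536). Against introns beyond 10 kb they differed by -1.47, -0.970 and 0.885 percentage points (exact permutation p = 0.5, adjusted 0.75). The differences from promoters and from introns at 2 to 10 kb thus had 1 sign in every replicate. The difference from introns beyond 10 kb did not. The excess over the flank in members, 4.55 percentage points, was 2.91 without replicate 1, that is among peaks supported by the other replicates. Members with the letters had a median pooled rank of 2148 and a GC content of 40.9%, and members without them 1976 and 37.2%. In these values the members with the letters were neither stronger nor poorer in GC.

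For the TATA box, members and promoters differed by 2.91, 0.915 and -1.38 percentage points in the replicates, with no common sign (exact permutation p = 0.75, adjusted 0.75). Among thresholded peaks its share was 16.7% at 2 to 10 kb and 18.1% beyond 10 kb, beside 16.0% in the members. Members with the TATA box had a GC content of 32.8%, and members without it 38.4%, a difference that the motif, made of A and T alone, in part fixes by itself. For the GATA site, members were higher than promoters by 2.60, 2.88 and 1.76 percentage points (exact paired permutation p = 0.25, adjusted 0.536). They were not set apart from introns at 2 to 10 kb, with differences of -0.773, -1.36 and 0.333 points (exact permutation p = 0.5, adjusted 0.75). Against introns beyond 10 kb the differences were 1.29, 2.91 and 0.886 points. Among thresholded peaks the share was 10.1% in members, 10.3% at 2 to 10 kb and 9.06% beyond 10 kb. The excess of the GATA site over the flank was unstable. It was 0 among members supported in all replicates and -1.09 percentage points among the strongest 2130 peaks. Without replicate 2, that is among peaks supported by the other replicates, it was -0.732.

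Several motifs known from promoters were rarer at the members, and also in the other introns, than at promoters. The GAGA element, GAGAG, was present at 13.05% of summits against 17.3% of flanks, whereas promoter peaks had 18.0% at the summit and 14.1% in the flank. Intronic peaks at 2 to 10 kb had 12.997% at the summit and 15.9% in the flank. Those beyond 10 kb had 13.8% and 12.2%, so the deficit at the summit was not common to all introns. In the replicates its share in members was 17.3%, 12.5% and 11.6% at the summit and 17.2%, 19.3% and 16.3% in the flank, so the deficit appeared in replicates 2 and 3. Promoters had 22.1%, 17.4% and 12.3% at the summit and 14.3%, 14.2% and 16.7% in the flank. In replicate 3 promoters thus also had a deficit, and their summit share was close to that of the members. The DNA replication-related element (DRE), TATCGATA, was found in 0 of 682 members, which allows a share of up to 0.440% (upper Wilson bound 0.560%), in 0 of 754 and 0 of 254 peaks of the farther introns, and in 1.56% of promoter peaks. The ETS site, CCGGAA, was at 1.17% of member summits, 1.72% of summits at 2 to 10 kb and 4.96% of promoter summits. Runs of 8 A were not rarer at members than at promoters, with 4.55% of member summits and 3.35% of promoter summits. They were rarer at summits than in flanks in each class, with flank shares of 7.92% for members and 5.94% for promoters. The summit was also lower than the flank at 2 to 10 kb (4.51% against 9.28%), beyond 10 kb (3.54% against 12.2%) and over all peaks (3.90% against 7.35%).

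A set of 10 words of 8 bases was chosen on the 1008 intronic peaks beyond 2 kb, which include no member, for the largest excess at their summits. The words were AATATTTA, AACAAATA, GCAAACAA, AATATTTG, AAATATTT, ACAAATAT, AGCAAACA, GGCAAACA, ATATTTAC and TATTTACA. Several overlap each other and hold AAACA or TATTTA. None holds the exact letters GTAAACA, but several hold a form that differs from them in 1 base. GCAAACAA, AGCAAACA and GGCAAACA hold GCAAACA, and ATATTTAC and TATTTACA hold GTAAATA on the other strand. The words are thus not unrelated in sequence to the forkhead letters. In the members, 9 of the 10 were more frequent at the summit than in the flank, and GGCAAACA was not (6 members against 8 flanks). In promoter peaks 10 of the 10 were more frequent at the summit, so this count does not set the members apart from promoters. At least 1 word was present in 131 members (19.2%) against 62 flanks (9.09%), in 11.8% of promoter peaks against 9.52% of flanks, and in 26.2% of the peaks that chose them against 9.03% of flanks. The excess in the members was 8.51, 9.87 and 6.62 percentage points in the lists of replicates 1, 2 and 3 (mean 8.33 ± 1.63, SD, n = 3). AATATTTG went from 6 flanks to 29 summits and ATATTTAC from 5 to 25. By the share with at least 1 word, words that marked the farther introns were thus also more frequent at member summits than in flanks, in every replicate. The same share was higher at the summit in promoter peaks too, by less.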

How the data were processed

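Peak lists of 3 immunoprecipitated replicates were used as deposited. Per the deposited file records, entries were called for every replicate and for the pooled reads with 1 shared control, and IDR on those lists gave the thresholded peaks (dm6). The aligner and peak caller are not given in the sources used here. Their score is the authors' deposited signal value, of unstated scale, used only to rank entries within 1 list. The authors' deposited −log10 q-value gave the number of entries that reach 0.05. Each list of peaks and background holds 30000 entries, so its length carries no information. Chromatin was sheared to 200 to 800 bp, per the labels, which limits how finely summits resolve.

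Genes and their TSSs are those of Ensembl release 115 (BDGP6.54), with 13945 protein-coding genes and every transcript counted, and the RefSeq genome, release 6, gave the sequence. Noncoding RNA genes were those with the biotype ncRNA, and transposable elements were left out. Base shares were counted over every base that is not N. A first intron is the first of any transcript of the host. Flanks were taken 300 bp to one side, drawn at random with a fixed seed. Differences between classes were tested over replicates with the exact paired permutation test (sign flips) and Benjamini-Hochberg adjustment over 15 comparisons. The members and the gene lists, motifs and words were chosen with earlier results of these data known. Named genes are hosts of the 15 strongest supported members, hosts of 3 or more members, and up to 3 leading hosts per list, and the remaining hosts of each list are given by name only. Genes at the bounds of the class, and the nearest genes of members, are named for position. Alternatives were other distance bounds, TSS sets, windows and support rules, and keeping only peaks supported by the other 2 replicates. The last is called without a replicate. Its peaks and pooled ranks still came from the lists of all 3 replicates, so independence from that replicate was not tested. Computations used Python 3.11.15, NumPy 2.4.6, pandas 2.3.3, SciPy 1.17.1 and matplotlib 3.10.9 and were tested on simulated data.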

Additional observations from a re-analysis of the deposited data

How the results depend on the processing

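Values moved by no more than 1 SD between replicates under 72 of 134 alternatives; those that moved further follow, and 3 of them, all of the GATA site, changed sign. Leaving out peaks or bounds changes these values by construction; other causes were not tested. With 1 TSS per gene the class held 12.7% of peaks at 2.39 times the density of all bases, with 88.5% in first introns, 84.1% nearest to a TSS of the host, 8.72% of listed genes as hosts, a word excess of 7.96 points and a GATA excess of -0.741 points. With an upper bound of 1500 bp the class share was 12.4%, the density ratio 2.30, first introns 86.6% and listed hosts 10.2%. With a lower bound of 750 bp they were 12.1%, 2.00 and, for listed hosts, 10%, with a TATA box excess of 5.83 points. Among the strongest 2130 peaks the class share was 17.2%, the ratio 2.29, the median rank 1047, first introns 88.3%, the host's own TSS 92.1%, support in all replicates 85.0%, a promoter peak at the nearest TSS 14.2%, listed hosts 6.62% beside 3.79% of all genes, and the GATA excess -1.09 points. Among peaks supported in all 3 replicates these were 18.1%, 2.40, 1132 and 86.9%, with a promoter peak in 10.2%, listed hosts 6.11% beside 3.97% of all genes, a GATA excess of 0 and a GC difference from the flank of -5.78 points. Support in all replicates was 45.7% within 50 bp, 59.1% within 200 bp and 71.1% with every entry that reaches a q-value of 0.05. Windows of 25 bp to each side gave an excess of 2.79 points for the TATA box and 3.08 for the forkhead site, and flanks 500 bp away gave 4.84 for the GATA site. Keeping peaks supported by the other 2 replicates, the range without each replicate was 16.8% to 18.1% for the class share, 2.23 to 2.40 for the ratio, 1279.5 to 1412 for the median rank, 84.8% to 87.3% for first introns and 60.1% to 67.9% for support. It was 6.62% to 8.02% for listed hosts, -6.20 to -4.14 points for GC, 3.46 to 4.26 for the TATA box, 2.91 to 4.54 for the forkhead site and -0.732 to 1.30 for the GATA site, lowest without replicate 2. A promoter peak at the nearest TSS was found for 12.8%, 10.7% and 19.2% of members without replicates 1, 2 and 3, beside 6.85%, 6.53% and 8.91% of all TSSs. Leaving out peaks near the TSS of any noncoding gene, an alternative added after the data were seen, gave a class share of 16.0%. Tests between classes were paired by replicate, and with only 1 group no replicate block across groups could be fitted. Depth cannot be given.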
